A study of Mus musculus with 15 samples.

Results

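Prefoldin and the tubulin folding cofactors are encoded here by 10 genes. Pfdn1, Pfdn2, Pfdn4, Pfdn5, Pfdn6 and Vbp1 specify the 6 subunits of prefoldin. Tbca, Tbcb, Tbcd and Tbce specify tubulin cofactors A, B, D and E. The genes were chosen by name with earlier results of these data known, so their shares beside all tested genes are descriptions. Their Ensembl identifiers are ENSMUSG00000024346 (Pfdn1), ENSMUSG00000006412 (Pfdn2), ENSMUSG00000052033 (Pfdn4), ENSMUSG00000001289 (Pfdn5), ENSMUSG00000024309 (Pfdn6), ENSMUSG00000031197 (Vbp1), ENSMUSG00000042043 (Tbca), ENSMUSG00000006095 (Tbcb), ENSMUSG00000039230 (Tbcd) and ENSMUSG00000039233 (Tbce). All 10 were found among the 57180 genes listed, and all 10 passed the filter on low counts in both experiments. Polyadenylated RNA from mouse brainstem (C57BL/6 background), dissected per the study around the centres that control breathing, was sequenced in 15 libraries, 3 per genotype. The first experiment set AMPK-/- mice, which per the study lack the catalytic subunit AMPKα2, against their AMPK+/+ (WT) littermates, newborn mice in that study. The second set embryos labelled LMX1B+/- and LMX1B-/-, with 1 or both copies of the homeobox gene Lmx1b mutated, against LMX1B+/+ (WT) embryos. The study's methods place its postnatal mice in the first days after birth, and newborn is used below on that basis only. The age of each animal, the sex and the number of animals behind a library are not given in the sources used here, so a p-value below measures the spread between these libraries, which may be technical.

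Prefoldin is a hexameric cytosolic co-chaperone shaped like a jellyfish: 2 α-type subunits (Vbp1, also called prefoldin 3, and Pfdn5) and 4 β-type subunits (Pfdn1, Pfdn2, Pfdn4 and Pfdn6) form a body from which coiled coils reach out, capture newly made actin and tubulin chains and hand them to the chaperonin TRiC/CCT. Tubulin released by the chaperonin is then taken over by the tubulin cofactors. Cofactor A holds β-tubulin and cofactor B holds α-tubulin, while cofactors D and E, together with cofactor C, assemble the αβ-heterodimer that microtubules, and so growing axons and dendrites, are built from.

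In the brainstem of embryos labelled Lmx1b+/-, 8 of the 10 transcripts rose over WT by 1.47-fold to 2.82-fold, Pfdn4 and Tbca most, while Tbcd and Tbce did not pass the test in either direction. The same 8 fell from the Lmx1b+/- to the Lmx1b-/- libraries, and in Lmx1b-/- against WT none of the 10 passed. In the newborn libraries labelled AMPK-/-, 6 of the 10 rose by 1.61-fold to 2.00-fold, but none of these calls held without the 2 libraries that have few reads. In each comparison that gave calls, all called members were short genes and the 2 long genes were not called, and short genes at large shifted the same way.

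Before these results, the libraries themselves need describing. The Lmx1b libraries held 28833130 to 37441679 counts each. Of the AMPK libraries, 4 held 14975095 to 17384171 counts, but WT replicate 2 held 291212 and AMPK-/- replicate 3 held 335986, at which the median tested gene had 3 and 4 counts and 3 counts, the limit that a count of 0 allows, equalled 9.98 and 9.07 CPM. CPM are counts scaled to a common library size (counts per mega-count), here with TMM factors (trimmed mean of M-values, an edgeR scaling on the bulk of the genes). Prkaa2, the gene for AMPKα2, was not lower by the test in the libraries labelled AMPK-/- (19.9 CPM against 26.1 in WT, log2 fold change -0.20 ± 0.23 SE, edgeR adjusted p = 0.659), and Lmx1b was not lower in those labelled Lmx1b+/- (18.9 against 16.1 CPM, log2 fold change 0.23, edgeR adjusted p = 0.618), so both groups are named by their labels only. In the Lmx1b-/- libraries Lmx1b was lower, at 1.14 CPM (log2 fold change -3.82 against WT, edgeR adjusted p = 0.00287). The tables give totals per gene, which do not show whether a deleted part of a gene is still read. All 8 neuronal markers and, in the libraries of usual depth, all 11 hindbrain Hox genes had counts, as brainstem tissue should.

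The sequence upstream of 3 genes is printed because these genes carry the largest rises (Pfdn4, Tbca) or because the study selected the gene for an Lmx1b binding motif near its start (Pfdn5), and that of Tbce because it did not move with them. Each line gives the 250 bases before the RefSeq start on the gene's own strand, 5′ to 3′, from the GRCm38.p6 build, which is not the build named for the counts.
Pfdn5: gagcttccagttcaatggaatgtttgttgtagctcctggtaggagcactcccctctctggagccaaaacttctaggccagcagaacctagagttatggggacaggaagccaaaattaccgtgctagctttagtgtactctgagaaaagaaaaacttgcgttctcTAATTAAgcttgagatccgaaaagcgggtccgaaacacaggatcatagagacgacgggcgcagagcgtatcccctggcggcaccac
Pfdn4: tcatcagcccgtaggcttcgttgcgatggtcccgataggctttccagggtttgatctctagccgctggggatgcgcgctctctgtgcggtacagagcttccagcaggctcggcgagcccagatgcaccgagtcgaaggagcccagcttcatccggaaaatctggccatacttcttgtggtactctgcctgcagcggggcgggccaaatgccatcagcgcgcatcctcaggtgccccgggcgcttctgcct
Tbca: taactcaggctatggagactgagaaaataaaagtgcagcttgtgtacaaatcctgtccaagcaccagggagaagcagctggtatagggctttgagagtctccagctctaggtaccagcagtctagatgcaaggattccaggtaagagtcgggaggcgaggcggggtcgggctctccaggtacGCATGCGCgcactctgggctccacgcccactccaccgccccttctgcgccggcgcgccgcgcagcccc
Tbce: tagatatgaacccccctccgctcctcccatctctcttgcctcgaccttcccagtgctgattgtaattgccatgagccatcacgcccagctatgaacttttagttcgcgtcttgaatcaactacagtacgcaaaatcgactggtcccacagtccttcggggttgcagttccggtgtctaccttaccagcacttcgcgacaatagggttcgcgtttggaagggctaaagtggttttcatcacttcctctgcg
The windows lie at chr15:102325866-102326115 on the plus strand for Pfdn5, chr2:170496178-170496427 on the plus strand for Pfdn4, chr13:94788670-94788919 on the plus strand for Tbca and chr13:14039639-14039888 on the minus strand for Tbce. Capitals mark matches to 5 strings searched on both strands: the homeodomain core TAATTA and its longer form TTAATTA, the ETS string CCGGAAG, the YY1 string AAGATGGCG and GCATGCGC, a part of the NRF1 palindrome. The search covered the window from 250 bases before to 50 bases after the start. The study searched a wider window with consensus sequences from a motif database, so its search and this one differ. Of the 9 genes with a window (none was given for Pfdn1), Pfdn5 alone held TAATTA, starting at position -86 relative to its start, where the overlapping TTAATTA also matched on the other strand. Among all 27025 genes with promoter windows, 6.12% held TAATTA and 3.56% held TTAATTA in any window. Pfdn4, Pfdn6 and Tbce held CCGGAAG (9.93% of all genes), Pfdn2 and Vbp1 held AAGATGGCG (1.64%) and Tbca held GCATGCGC (3.05%). A match is only a run of letters, and no binding was measured in these libraries.

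Per gene length, the members of the WT groups fell into an upper and a lower tier. RPKM are read counts scaled by library size and gene length, as the authors deposited them. For the members that length is all annotated exons merged, not a single transcript. By RPKM, Pfdn5 came first in 4 of the 5 groups, from 45.8 in AMPK WT to 91.5 in AMPK-/-. In the Lmx1b WT libraries Tbcb led with 41.6 ± 6.22 RPKM (SD, n = 3), followed by Pfdn5 with 39.5 ± 9.94 and Vbp1 with 34.2 ± 7.89, and the ranges of these neighbours overlapped. Tbca (24.5 ± 4.23), Pfdn2 (17.0 ± 3.77), Pfdn1 (16.2 ± 1.80) and Pfdn6 (13.6 ± 3.57) came next, each overlapping the one after it. The lower tier was Tbce with 8.51 ± 1.74, Pfdn4 with 7.09 ± 0.988 and Tbcd with 5.89 ± 0.782, whose ranges also ran into each other but lay below that of Pfdn6. In the AMPK WT libraries the order was Pfdn5 (45.8 ± 13.2), Pfdn2 (33.2 ± 3.996), Tbcb (32.8 ± 3.91), Tbca (22.2 ± 3.39), Vbp1 (21.8 ± 3.47), Pfdn6 (19.8 ± 7.998) and Pfdn1 (18.9 ± 1.33), with Pfdn4 (5.28 ± 0.479), Tbce (4.96 ± 1.17) and Tbcd (4.54 ± 0.339) again at the bottom. Only 2 steps in that order were free of overlap, the one from Tbcb to Tbca and the one from Pfdn1 to Pfdn4. Pfdn4 had the lowest mean of the 6 subunits in all 5 groups, although in Lmx1b+/- its range met that of Pfdn6 (16.9 ± 3.13 against 17.5 ± 0.844 RPKM).

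**Figure D1:**
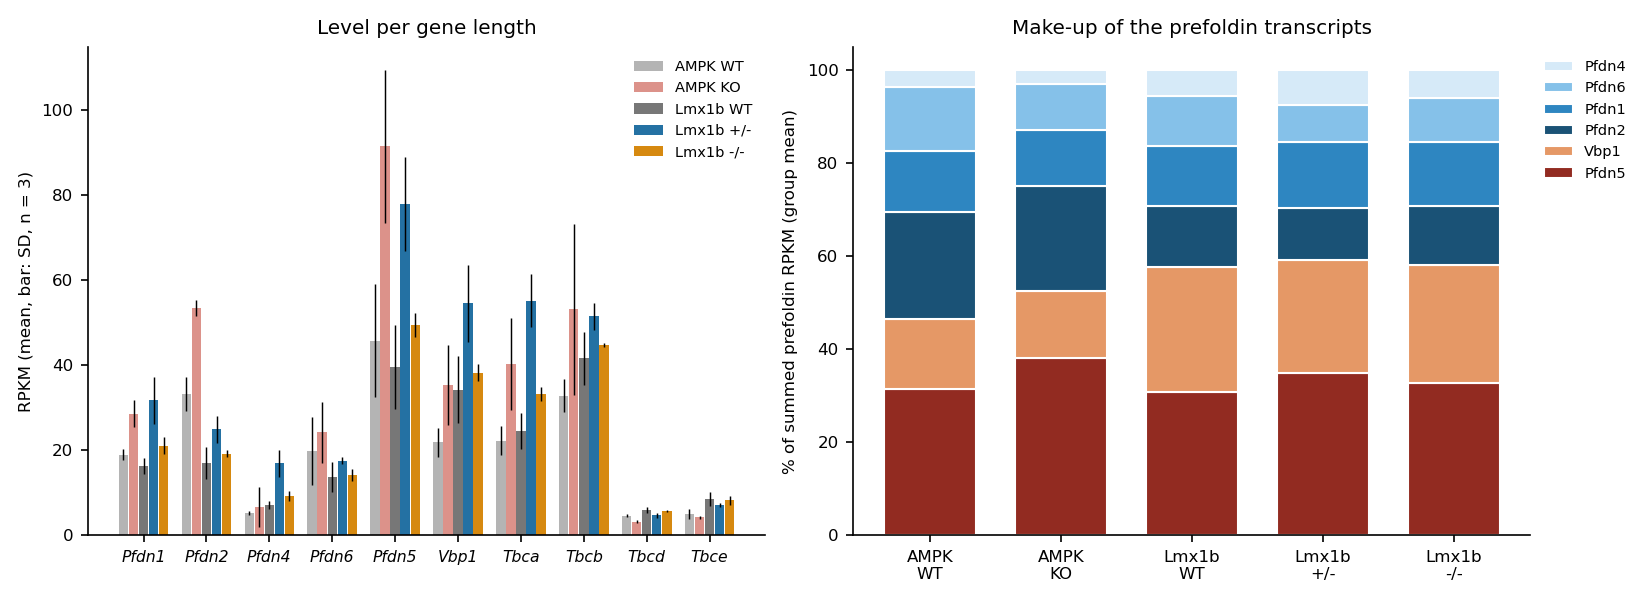
Left, RPKM of the 10 genes as the mean of 3 libraries per group with the SD as error bar. Right, the share of the summed prefoldin RPKM that each of the 6 subunits took, as the mean of each group. Tbcd has the lowest mean RPKM in all 5 groups, and Pfdn5 takes the largest single share, 30.8% in Lmx1b WT and 34.9% in Lmx1b+/-.

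The comparison of the libraries labelled Lmx1b+/- with WT asked how the brainstem transcriptome of embryos with that label differs from that of WT embryos. Of all 21729 genes tested, 36.7% passed an edgeR adjusted p under 0.05 (19.4% higher, 17.3% lower), so a call was common in this comparison. Against that background 8 of the 10 members were higher and 0 lower, with a median log2 fold change of 0.87 beside -0.031 over all tested genes. All 8 had every Lmx1b+/- library above every WT library, which held for 23.4% of tested genes. From bulk tissue, a change in the number of cells of a type and a change in RNA per cell cannot be told apart.

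**Figure D2:**
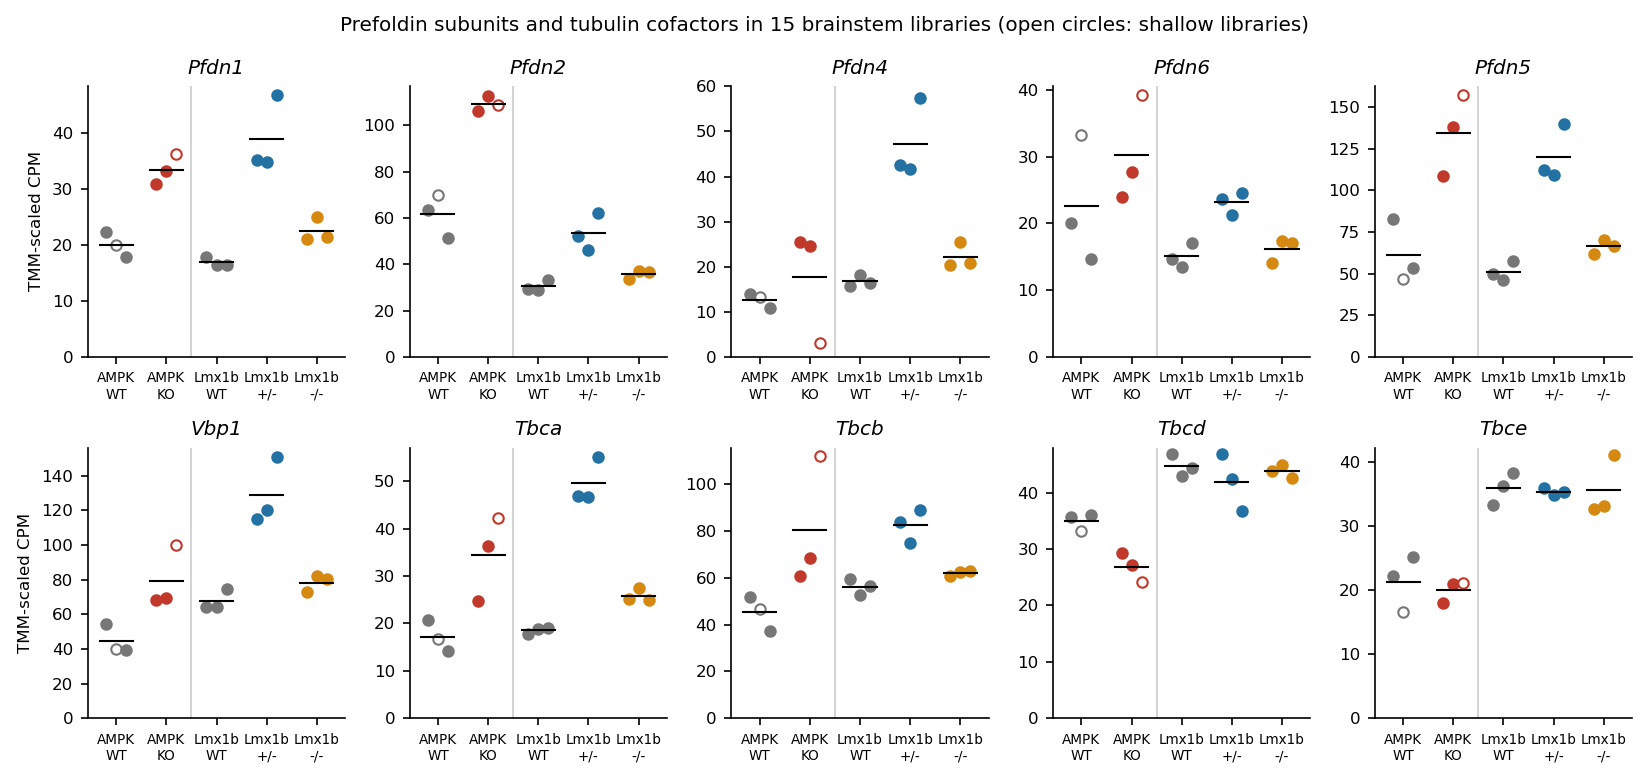
TMM-scaled CPM of each of the 10 genes in each library, one panel per gene, with the 5 groups on the horizontal axis, 3 points per group and the group mean as a black line. The 3 Lmx1b+/- points lie above all Lmx1b WT and Lmx1b-/- points for every gene but Tbcd and Tbce. CPM of the AMPK and Lmx1b experiments were scaled separately.

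Among the α-type subunits, Vbp1, known also as a partner of the von Hippel-Lindau protein, had 64.0, 64.4 and 74.4 CPM in the WT libraries, 115, 120.3 and 151 in Lmx1b+/- and 72.7, 81.8 and 80.4 in Lmx1b-/-. The Lmx1b+/- libraries were clear of both other groups, whose ranges met. Vbp1 was 1.90-fold higher in Lmx1b+/- than in WT (log2 fold change 0.93 ± 0.12 SE, edgeR adjusted p = 6.29e-05) and 0.609-fold in Lmx1b-/- relative to Lmx1b+/- (log2 fold change -0.72, edgeR adjusted p = 0.000688). Pfdn5, first described as a binding partner of the Myc protein, had 50.05, 45.9 and 57.3 CPM in WT, 112, 109 and 139.8 in Lmx1b+/- and 61.9, 70.5 and 66.5 in Lmx1b-/-. Here the 3 genotypes did not overlap at all, with Lmx1b-/- between the others. Its log2 fold change was 1.23 ± 0.12 in Lmx1b+/- against WT (edgeR adjusted p = 9.36e-06), -0.86 ± 0.12 in Lmx1b-/- against Lmx1b+/- (edgeR adjusted p = 0.00023) and 0.37 ± 0.12 in Lmx1b-/- against WT (edgeR adjusted p = 0.532). The study picked Pfdn5 out of these same libraries for its network of Lmx1b-related genes, so its change here is not independent evidence.

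The β-type subunits rose together as well. Pfdn4, a subunit at low abundance in both experiments, had 15.8, 18.1 and 16.3 CPM in WT, 42.5, 41.6 and 57.4 in Lmx1b+/- and 20.3, 25.5 and 20.8 in Lmx1b-/-. The 3 groups were again separate, and Lmx1b+/- exceeded WT 2.82-fold (95% interval 2.28 to 3.48, edgeR adjusted p = 8.79e-06), the largest change of any member. Pfdn1 had 17.9, 16.4 and 16.3 CPM in WT, 35.2, 34.7 and 46.9 in Lmx1b+/- and 21.1, 24.9 and 21.4 in Lmx1b-/-. All Lmx1b+/- values lay above 34 and all WT values below 18, a 2.31-fold difference (95% interval 1.90 to 2.81, edgeR adjusted p = 2.26e-05). Pfdn2 had 29.4, 28.9 and 33.3 CPM in WT, 52.3, 46.0 and 62.2 in Lmx1b+/- and 33.5, 36.9 and 36.6 in Lmx1b-/-. The lowest Lmx1b-/- library lay just above the highest WT library, and Lmx1b+/- stood 1.75-fold over WT (95% interval 1.47 to 2.08, edgeR adjusted p = 0.000168). Pfdn6, which lies in the major histocompatibility region, had 14.6, 13.5 and 17.1 CPM in WT, 23.7, 21.3 and 24.5 in Lmx1b+/- and 14.1, 17.3 and 17.1 in Lmx1b-/-. WT and Lmx1b-/- overlapped for Pfdn6, and its 1.53-fold rise in Lmx1b+/- was the smallest of the 6 subunits (95% interval 1.27 to 1.86, edgeR adjusted p = 0.0022).

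Of the tubulin cofactors, Tbca and Tbcb were called higher in Lmx1b+/- than in WT, and Tbcd and Tbce were not. Tbca and Tbcb are also the short genes among them, which is taken up below, and no cofactor was tested against another. Tbca, the β-tubulin holder, had 17.7, 18.8 and 19.1 CPM in WT, 46.9, 46.6 and 55.1 in Lmx1b+/- and 25.1, 27.4 and 25.1 in Lmx1b-/-. The libraries of a genotype were close to each other and the genotypes far apart, and the 2.67-fold rise in Lmx1b+/- (95% interval 2.29 to 3.11, edgeR adjusted p = 3.96e-06) ranked 15 among all 21729 genes by p. Tbcb, the α-tubulin holder, had 59.4, 52.6 and 56.5 CPM in WT, 83.9, 74.6 and 88.9 in Lmx1b+/- and 60.6, 62.5 and 62.8 in Lmx1b-/-. It rose 1.47-fold in Lmx1b+/- (95% interval 1.28 to 1.68, edgeR adjusted p = 0.000505), the smallest of the 8 calls. Tbcd, the large cofactor that binds β-tubulin in the heterodimer-assembling complex, had 46.8, 43.0 and 44.3 CPM in WT, 46.8, 42.3 and 36.7 in Lmx1b+/- and 43.8, 44.8 and 42.6 in Lmx1b-/-. Its groups overlapped, with a fold of 0.938 in Lmx1b+/- against WT (95% interval 0.808 to 1.09, edgeR adjusted p = 0.5). Tbce, the cofactor that binds α-tubulin, had 33.3, 36.3 and 38.3 CPM in WT, 36.0, 35.0 and 35.3 in Lmx1b+/- and 32.7, 33.2 and 41.1 in Lmx1b-/-. It too overlapped across genotypes, with a fold of 0.985 (95% interval 0.84 to 1.15, edgeR adjusted p = 0.894), so a rise of the size seen for Tbca lies outside its interval.

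Lmx1b-/- against WT, which shares its WT libraries with the comparison above, gave no call for any member by edgeR, DESeq2 or limma with the low-count filter, while edgeR without that filter called Tbca (adjusted p = 0.041). Over all genes only 4 (0.0184%) were called, all lower, and 8.09% had an unadjusted p under 0.05. At that unadjusted level 4 members were higher, namely Tbca (log2 fold change 0.48 ± 0.10 SE, edgeR adjusted p = 0.332), Pfdn1 (0.41), Pfdn4 (0.41) and Pfdn5 (0.37). The Lmx1b-/- libraries all lay above WT for 6 members (Pfdn1, Pfdn2, Pfdn4, Pfdn5, Tbca and Tbcb), as for 11.9% of tested genes. The median log2 fold change of the 10 was 0.22, beside 0.010 over all tested genes.

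From Lmx1b+/- to Lmx1b-/-, 8 of the 10 members were lower and 0 higher, beside 14.0% of tested genes lower and 25.5% called in all. This comparison shares its libraries with the others, so it restates the same values and adds no replicates. The median log2 fold change was -0.65, with Pfdn4 at -1.09 ± 0.14 SE (edgeR adjusted p = 0.000149), Tbca at -0.94 ± 0.10 (edgeR adjusted p = 5.08e-05) and Tbcb at -0.41 ± 0.092 (edgeR adjusted p = 0.00558) at the ends of the range. Tbcd (0.061) and Tbce (0.0096) were near 0, and all 8 called members had every Lmx1b-/- library below every Lmx1b+/- library, as for 21.4% of tested genes.

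**Figure D3:**
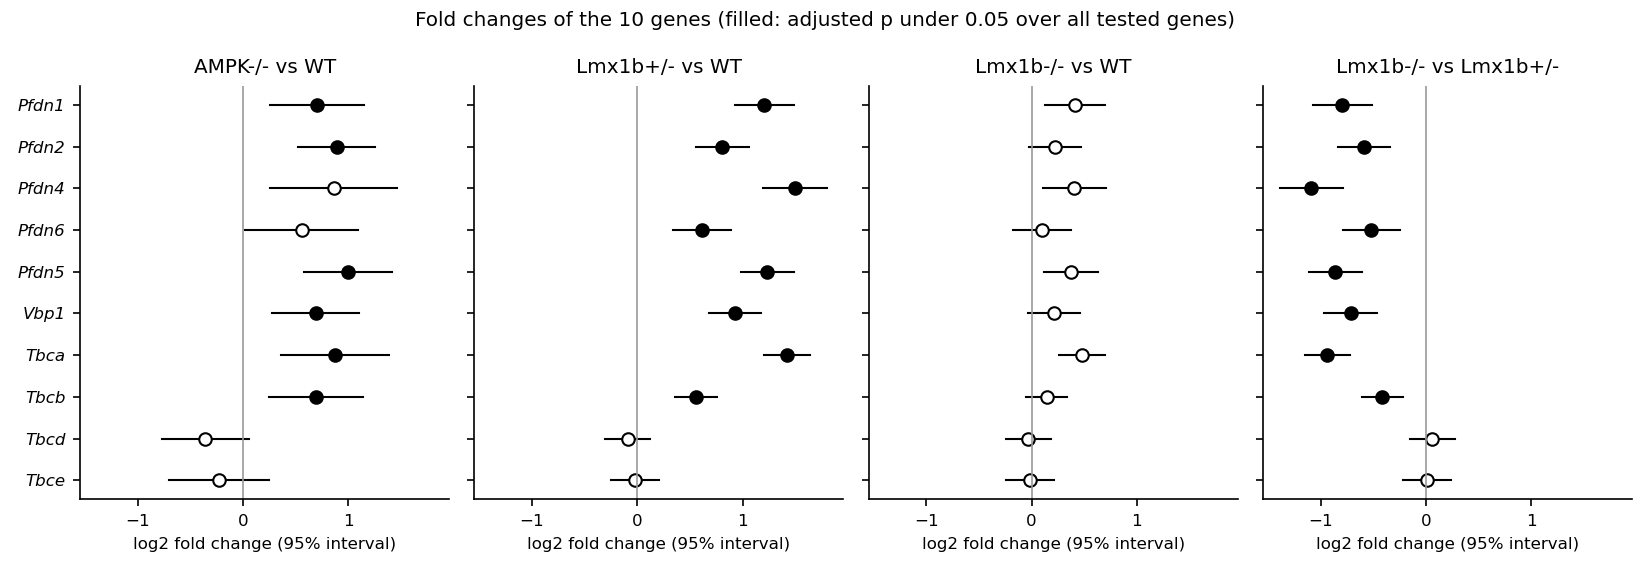
Log2 fold change of the 10 genes in the 4 comparisons, with the 95% interval of the edgeR fit as a line. Filled points passed an adjusted p under 0.05 over all tested genes. The 8 short genes sit right of 0 in Lmx1b+/- against WT and left of 0 in Lmx1b-/- against Lmx1b+/-, while Tbcd and Tbce straddle 0 in all 3 Lmx1b comparisons.

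Partners of the 10 genes in the same folding pathway were examined as 6 lists, also chosen with earlier results of these data known. The chaperonin TRiC/CCT, to which prefoldin delivers its substrates, had 8 of its 8 tested genes higher in Lmx1b+/- than in WT (median log2 fold change 0.77), beside 19.4% of all tested genes higher and 17.3% lower. Cct4 (0.80 ± 0.10 SE, edgeR adjusted p = 8.38e-05), Tcp1 (0.94 ± 0.12, edgeR adjusted p = 9.41e-05), Cct5 (0.90) and Cct6a (0.87) were among them. Of the other cofactors and chaperonin regulators 6 of 9 were higher and 0 lower, led by Txndc9 (0.90, edgeR adjusted p = 8.29e-05), Pdcl3 (0.93, edgeR adjusted p = 9.29e-05) and Pdcl (0.68), which are thioredoxin-like and phosducin-like proteins that act on the chaperonin. Tbcc, the cofactor that completes heterodimer assembly, was also called there, and it was higher by a log2 fold change of 0.45 ± 0.15 (edgeR adjusted p = 0.0286), and is named after its value was seen.

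Of the substrates, 5 of 16 tested tubulins were higher and 2 lower in Lmx1b+/-, to be read against the same 19.4% and 17.3%, with Tuba1b (0.66, edgeR adjusted p = 0.000784) the called tubulin with the smallest p. Of the 2 cytoplasmic actins, the other main clients, neither Actb nor Actg1 was called. The cytosolic Hsp70 and Hsp90 system had 4 of 10 higher and 0 lower, and the prefoldin-like and R2TP genes, relatives of prefoldin that serve other assemblies, had 2 of 7 higher and 0 lower (median log2 fold change 0.22), a share near that of all tested genes. From Lmx1b+/- to Lmx1b-/-, where 14.0% of all tested genes were lower and 11.5% higher, 8 of 8 chaperonin genes were lower (median -0.54). So were 3 of 9 other cofactors and regulators, 1 of 7 prefoldin-like and R2TP genes, 3 of 16 tubulins, with 1 more higher, and 2 of 10 Hsp70 and Hsp90 genes, but 0 of 2 actins. Against WT, Lmx1b-/- gave no call in any of the 6 lists.

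The newborn comparison asked which brainstem transcripts differ between the libraries labelled AMPK-/- and those labelled WT. There 6 of the 10 members were called higher and 0 lower, beside 3.77% of 17397 tested genes higher, 5.17% lower and 8.94% in all. The median log2 fold change was 0.70 against -0.0056 over all tested genes. Vbp1 had 54.2, 39.9 and 39.2 CPM in WT and 68.0, 69.2 and 99.7 in the libraries labelled AMPK-/-, the middle WT value and the last AMPK-/- value being those of the shallow libraries, here and below. The groups did not overlap (log2 fold change 0.69 ± 0.20 SE, edgeR adjusted p = 0.0325), and the highest value came from 33 counts. Pfdn5 had 83.0, 46.6 and 53.6 CPM in WT and 109, 138 and 157 in AMPK-/-, a 2.00-fold rise (95% interval 1.498 to 2.67, edgeR adjusted p = 0.00405) and the largest of the group.

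Of the β-type subunits, Pfdn2 had 63.5, 69.9 and 51.2 CPM in WT and 106, 113 and 109 in AMPK-/-. Its AMPK-/- values were tightly grouped and 1.85-fold above WT (95% interval 1.44 to 2.38, edgeR adjusted p = 0.00369), the smallest p of the 10. Pfdn1 had 22.3, 19.97 and 17.8 CPM in WT and 30.9, 33.2 and 36.3 in AMPK-/-, without overlap (log2 fold change 0.70 ± 0.22, edgeR adjusted p = 0.0451). Pfdn4 had 14.0, 13.3 and 10.8 CPM in WT and 25.5, 24.7 and 3.02 in AMPK-/-. The low value is a single count in the shallow library, under the limit that a count of 0 allows there, and Pfdn4 was not called (0.86 ± 0.29, edgeR adjusted p = 0.0658). Pfdn6 had 20.01, 33.3 and 14.6 CPM in WT and 24.0, 27.7 and 39.3 in AMPK-/-, overlapping and not called (0.56 ± 0.26, edgeR adjusted p = 0.185), with both high values from the shallow libraries.

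As in the embryos, Tbca and Tbcb were called and Tbcd and Tbce were not. With the trend on gene length removed, as described below, Tbca and Tbcb were not called either (edgeR adjusted p = 0.26 and 0.27). Tbca had 20.8, 16.6 and 14.3 CPM in WT and 24.7, 36.3 and 42.3 in AMPK-/-, and was called (log2 fold change 0.87 ± 0.25, edgeR adjusted p = 0.0291). Tbcb had 51.8, 46.6 and 37.4 CPM in WT and 60.5, 68.5 and 112 in AMPK-/-, and was called close to the threshold (0.69 ± 0.22, edgeR adjusted p = 0.0456). Both were free of overlap, as 13.9% of tested genes were in that direction. Tbcd had 35.7, 33.3 and 36.0 CPM in WT and 29.3, 27.1 and 24.2 in AMPK-/-. Every AMPK-/- library was below every WT library, as for 12.7% of tested genes, but the test did not call it (log2 fold change -0.36 ± 0.20, edgeR adjusted p = 0.285). Tbce had 22.3, 16.6 and 25.2 CPM in WT and 18.0, 20.9 and 21.2 in AMPK-/-, overlapping and not called (-0.23 ± 0.23, edgeR adjusted p = 0.582).

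The AMPK calls depended on which libraries were kept. Without both shallow libraries, 0 members passed edgeR's adjusted threshold, while 8 had an unadjusted p under 0.05 (as did 20.2% of tested genes), and 0.0166% of the 18088 tested genes were called higher and 0.0166% lower. The log2 fold changes of the 8 short members there ran from 0.54 (Tbcb) to 1.02 (Pfdn4), so the sizes stayed close to those with all 6 libraries. Leaving out WT replicate 2 or WT replicate 3 left 2 members called, Pfdn2 and Pfdn5, beside 2.03% and 1.50% of tested genes higher. Without AMPK-/- replicate 3, 3 members were called, beside 1.28%: Pfdn2 and Pfdn5 of the 6, and Pfdn4 (edgeR adjusted p = 0.0337), which all 6 libraries together did not call. Leaving out WT replicate 1 gave 7, the 6 and Pfdn4, beside 8.04%. WT replicate 3 also held 1071 CPM of skeletal muscle markers in sum, against 9.07 to 17.6 CPM in the other 5 libraries, and its part in the members' values was not tested.

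Among the related lists in AMPK-/-, 2 of 8 chaperonin genes were higher and 0 lower, beside 3.77% of all tested genes higher and 5.17% lower, with all 8 log2 fold changes above 0 (median 0.46). Cct8 (0.69 ± 0.17 SE, edgeR adjusted p = 0.0132) and Cct2 (0.56 ± 0.17, edgeR adjusted p = 0.0409) were the ones called. Pdcl3 was the 1 of 9 regulators that passed (1.04 ± 0.20, edgeR adjusted p = 0.00322), and 5 of 16 tubulins were higher and 0 lower, including the neuronal Tubb3 (0.65, edgeR adjusted p = 0.022) and Tubb2a (0.65, edgeR adjusted p = 0.0129). Actg1 was 1 of 2 actins called (0.55, edgeR adjusted p = 0.049), and none of 10 Hsp70 and Hsp90 genes or of 7 prefoldin-like and R2TP genes was. These counts come from all 6 libraries, and without both shallow libraries only 6 genes were called over the whole table.

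Gene length separated the members in the same way as it separated genes at large. Length here is the number of bases behind the RPKM. For the members it equals all annotated exons merged, not a single transcript or the genomic span. The 8 short members measured 811 (Tbca) to 2520 bases (Pfdn4), and Tbce and Tbcd measured 4540 and 8096 bases. Among the 5471 tested genes of 811 to 2520 bases in the Lmx1b table, 25.3% were higher and 4.51% lower in Lmx1b+/-, with a median log2 fold change of 0.19. Among the 5131 genes of 4540 to 8096 bases, 10.3% were higher and 28.5% lower, with a median of -0.19. Tbcd and Tbce were therefore a little above the middle of genes of their length, and the short members further above theirs. From Lmx1b+/- to Lmx1b-/- the shares turned over, with 18.5% of the short class lower and 19.3% of the long class higher. Among AMPK genes, 7.15% of 3648 genes in the short class and 1.29% of 4724 in the long class were higher.

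With a smooth trend on gene length taken out of every library, 7 members stayed higher in Lmx1b+/- than in WT, beside 16.4% of tested genes. Pfdn4 then had a log2 fold change of 1.43 (edgeR adjusted p = 7.08e-05), Pfdn5 of 0.96 (edgeR adjusted p = 0.00012), Tbca of 0.88 (edgeR adjusted p = 7.08e-05), Pfdn1 of 0.82, Vbp1 of 0.80, Pfdn2 of 0.65 and Tbcb of 0.29 (edgeR adjusted p = 0.0242). Pfdn6 was no longer called (0.27, edgeR adjusted p = 0.101). Tbcd and Tbce turned from just below to just above 0 (0.14 and 0.074) and remained uncalled. Tbca, the shortest member, lost the most, 1.42 against 0.88, and Pfdn4, the longest of the 8, the least. From Lmx1b+/- to Lmx1b-/- 6 members stayed lower, beside 10.6% of tested genes, with Pfdn6 and Tbcb not called. In AMPK-/- 2 stayed higher, Pfdn2 (0.72, edgeR adjusted p = 0.0228) and Pfdn5 (0.73, edgeR adjusted p = 0.0224), beside 2.12% of tested genes.

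**Figure D4:**
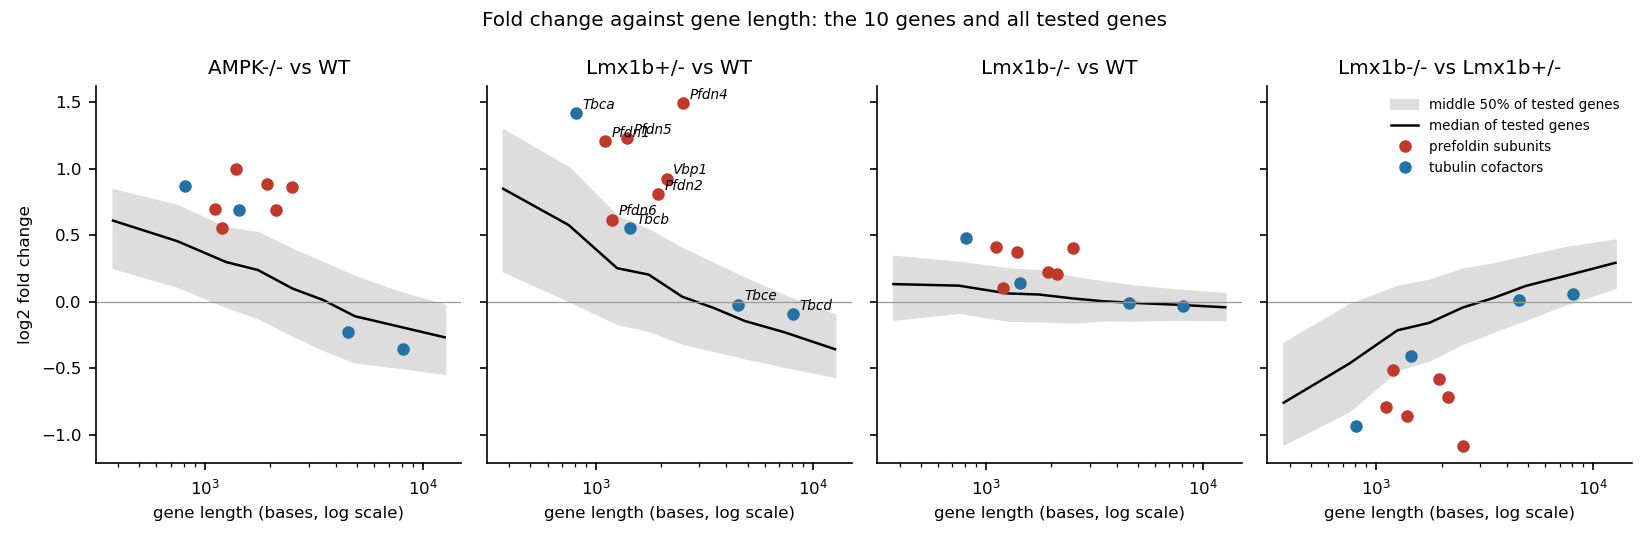
Log2 fold change against gene length (the bases behind the RPKM, log scale) for the 4 comparisons. The black line is the median of all tested genes in 9 length classes, the grey band their middle 50%, red points the prefoldin subunits and blue points the tubulin cofactors. Short genes as a class sit above long genes in AMPK-/- and Lmx1b+/- against WT and below them in Lmx1b-/- against Lmx1b+/-.

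Other measured values moved with the same libraries. The marker counts that follow stand beside 19.4% of all tested genes higher and 17.3% lower in Lmx1b+/-, and 3.77% higher and 5.17% lower in AMPK-/-. The share of counts on mitochondrially encoded genes was 10.4% to 13.9% in AMPK WT and 20.05% to 21.7% in AMPK-/-, and 5.57% to 6.74% in Lmx1b WT, 9.58% to 14.7% in Lmx1b+/- and 7.23% to 7.98% in Lmx1b-/-. The summed CPM of 9 erythroid markers was 510 to 1251 in Lmx1b WT, 3551 to 7518 in Lmx1b+/- and 1061 to 2383 in Lmx1b-/-, and 8 of the 8 tested were higher in Lmx1b+/- than in WT. The embryonic globins Hbb-y and Hbb-bh1 were at 0 in 2 of the 3 WT libraries. In Lmx1b+/-, 8 of 10 oligodendrocyte markers and 5 of 8 astrocyte markers were lower than in WT, none higher. Neuronal markers summed to 4710 to 5180 CPM in WT and 4755 to 5833 in Lmx1b+/-, with 1 of 8 higher and 2 lower. In the AMPK experiment they summed to 3232 to 3637 CPM in WT and 3991 to 4083 in AMPK-/-, with 4 of 8 higher and 1 lower. The hindbrain Hox genes, which follow position along the brainstem, summed to 139 to 291 CPM in Lmx1b WT and 242 to 660 in Lmx1b+/-, with 6 of 11 higher and none lower. The choroid plexus markers summed to 24.4 to 36.6 CPM in AMPK WT and 51.3 to 148 in AMPK-/-, both upper ends from shallow libraries. Those of serotonergic neurons summed to 375 and 187 CPM in AMPK-/- replicates 1 and 3, the latter shallow. The other 4 libraries, AMPK-/- replicate 2 among them, had 33.9 to 56.6 CPM. The part of these values in the members' changes was not tested.

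**Figure D5:**
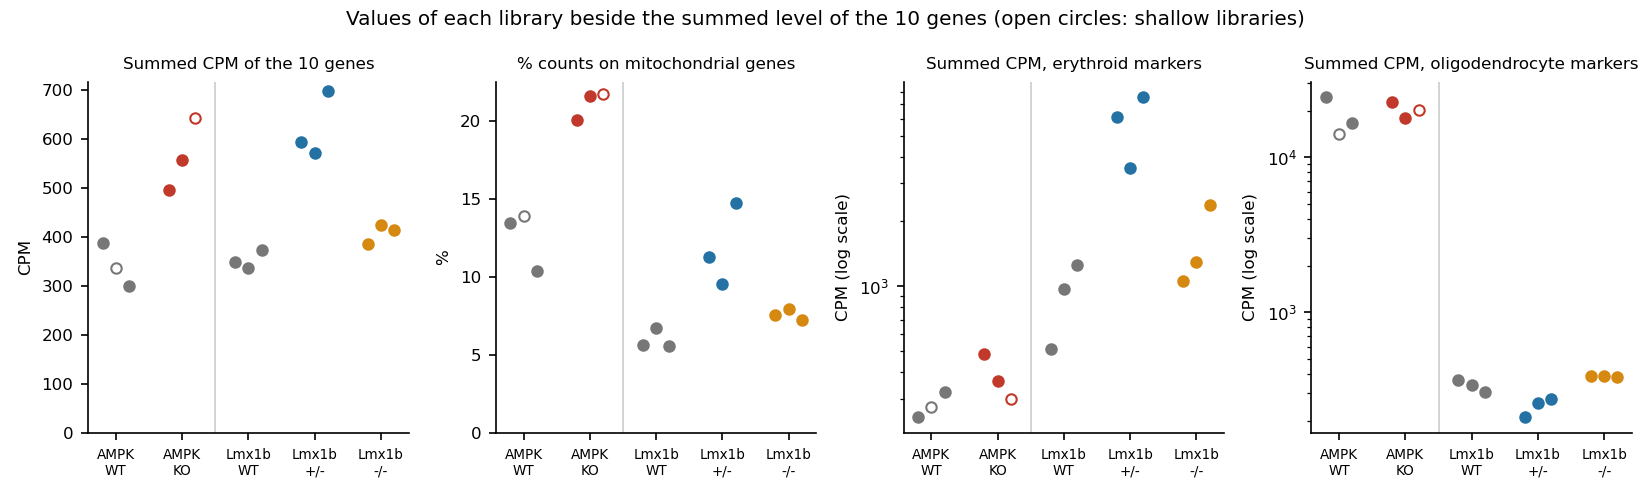
Values in each of the 15 libraries, by group: the summed CPM of the 10 genes, the percent of counts on mitochondrial genes, and the summed CPM of the erythroid and of the oligodendrocyte markers on log axes. Open circles are the 2 shallow AMPK libraries. The summed level of the 10 genes, 572 to 697 CPM in Lmx1b+/- against 338 to 373 in WT, goes with a higher erythroid sum and mitochondrial share than in the Lmx1b WT and Lmx1b-/- libraries. Across both experiments the mitochondrial share is highest in AMPK-/-.

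The make-up of the prefoldin transcripts was steadier than their level. Ratios within a library do not depend on how libraries are scaled. The summed RPKM of the 6 subunits was 128 ± 27.7 (SD, n = 3) in Lmx1b WT, 223 ± 32.6 in Lmx1b+/- and 151 ± 9.34 in Lmx1b-/-, while the 2 α-type subunits together had 1.36 ± 0.0733, 1.46 ± 0.0506 and 1.38 ± 0.0345 times the RPKM of the 4 β-type subunits. The WT range met both others. Among the subunit transcripts, Pfdn5 took 29.6% to 32.0% of the summed RPKM in WT, 34.8% to 35.0% in Lmx1b+/- and 32.6% to 32.98% in Lmx1b-/-. The 3 ranges lay apart. Pfdn4 took 5.02% to 6.46% in WT and 7.34% to 7.89% in Lmx1b+/-, whereas Pfdn6 went from 10.2% to 11.1% down to 7.11% to 8.65% and Pfdn2 from 13.1% to 13.4% down to 10.6% to 11.8%. With 3 libraries against 3, an exact permutation test of any one of these shares cannot go below a two-sided p of 0.1, so they are given as descriptions. In the AMPK experiment the α-type to β-type ratio was 0.897 ± 0.272 in WT and 1.12 ± 0.165 in AMPK-/-. The shallow libraries gave the lowest and the highest of these ratios, 0.598 in WT replicate 2 and 1.30 in AMPK-/- replicate 3.

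The ratio of Tbca to Tbce changed more. Tbca had 2.80 to 2.98 times the RPKM of Tbce in Lmx1b WT, 7.30 to 8.73 times in Lmx1b+/- and 3.41 to 4.63 times in Lmx1b-/-. The genotypes did not overlap. This ratio sets the shortest member against a long one, so it carries the shift with gene length described above. With the length trend removed, the log2 fold changes in Lmx1b+/- against WT were 0.88 (Tbca) and 0.074 (Tbce), instead of 1.42 and -0.022. In the AMPK experiment the ratio of Tbca to Tbce was 3.18 to 5.60 in WT and 7.67 to 11.2 in AMPK-/-. Both upper ends came from shallow libraries. WT replicate 2 had 5 counts of each gene, and AMPK-/- replicate 3 had 14 of Tbca and 7 of Tbce. Tbcd over Tbce, the 2 long genes, was 0.65 to 0.789 in Lmx1b WT, 0.583 to 0.729 in Lmx1b+/- and 0.582 to 0.758 in Lmx1b-/-, all overlapping.

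Set side by side without a test, since age, table and scaling differ, the newborn and the embryonic WT libraries differed in which subunit stood high. Pfdn2 took 20.5% to 25.9% of the prefoldin RPKM in AMPK WT and 13.1% to 13.4% in Lmx1b WT. Vbp1 went the other way, with 13.4% to 15.9% in AMPK WT and 26.0% to 27.1% in Lmx1b WT. Pfdn1 was close in both, at 12.5% to 13.9% and 11.4% to 13.9%. The marker sums of these WT libraries differed as well. Oligodendrocyte markers summed to 14079 to 24322 CPM in AMPK WT and 307 to 365 CPM in Lmx1b WT. The name newborn follows the study, and whether these sums match that age was not tested. The part of cell make-up in the subunit shares was not tested.

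Some counts may mix genes. A search of the reference transcripts found processed pseudogenes over 95% identical to Tbca (Gm4374 and Gm6142), Pfdn5 (Gm5644) and Pfdn6 (Gm13612). In the Lmx1b table Gm4374 held 22.1% as many counts as Tbca and Gm5644 held 6.59% as many as Pfdn5, and in Lmx1b+/- against WT both were higher, by log2 fold changes of 1.54 (edgeR adjusted p = 2.02e-05) and 1.15 (edgeR adjusted p = 0.000255). How the authors' counting divided reads between these copies is not given in the sources used here, so the values of Tbca, Pfdn5 and Pfdn6 are uncertain to that extent. Exons of 7 members overlap those of a neighbour, among them Pfdn5 with Myg1 on the same strand over 165 bases and Tbcb with Polr2i on the other strand over 325 bases. Myg1 did not pass the test in Lmx1b+/- (log2 fold change 0.28, edgeR adjusted p = 0.0761), and Polr2i was higher (0.87, edgeR adjusted p = 0.000276). The library kit keeps strand, but whether it was used in counting is not stated. Pfdn1, Vbp1 and Tbca overlap no annotated neighbour.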

How the data were processed

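RNA from brainstem was made into strand-keeping polyadenylated RNA libraries with molecular indexes and sequenced on an Illumina instrument. Reads were aligned by the authors with HISAT2 in systemPipeR, and the submitters' processing notes name the build GRCm39. The counter, the annotation, the strand setting and the use of the indexes are not given in the sources used here. The authors deposited, for each experiment, a table of raw read counts per Ensembl gene and a table of RPKM, from which gene lengths were recovered. For the 10 members these lengths equal the exonic lengths in the GENCODE vM21 annotation. The 4 tables hold no column of another sample. Symbols were found for 51884 of 57180 identifiers (90.7%).

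Each experiment was fitted alone (6 and 9 libraries, 3 per genotype) with edgeR 4.0.16 in R 4.3.3: filterByExpr, TMM, quasi-likelihood test, genotype as the term, Benjamini-Hochberg over all tested genes, threshold 0.05. SE is the log2 fold change over the square root of F, and intervals are at 95%. Groups come from the labels, and each column was matched by title or library name. The column matched to AMPK WT replicate 3 carries an unexplained suffix, so that match is less certain. Replicate numbers did not pair the libraries. No pair of replicates was alike within sampling noise. Intervals and floors cover counting error and library spread only.

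Alternatives were DESeq2 1.42.0, RLE scaling, library size only, other count filters (no filter, or at least 10 counts in every library), limma 3.58.1 on log2(RPKM + 1) and log2(RPKM + 0.1), a lowess trend on gene length (span 0.3) removed from every library, a replicate block, only the genotypes compared, and libraries left out. The fit without both shallow libraries and with the length trend removed was added after seeing the data. The test was tried on simulated counts. All 10 members are named, and of the 6 related lists at most 8 called genes per comparison, smallest adjusted p first. Outside that rule, Tbcc, Pdcl and Tuba1b in Lmx1b+/- and the actins were named after their values were seen. Members and lists were chosen with earlier results of these data known. Near-identical copies were sought with blastn 2.17.0 (over 95% identity, at least 150 bases) against reference transcripts. RefSeq promoter windows are of GRCm38.p6.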

Additional observations from a re-analysis of the deposited data

How the results depend on the processing

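The 8 calls in Lmx1b+/- against WT held in every library left out (8 called each time). They became 7 with the length trend removed and 6 with library size only or with limma, Pfdn6 and Tbcb being those lost. No direction of these 8 changed in 16 alternatives. Library size alone moved the median log2 fold change of all genes to -0.27 there, to -0.18 in AMPK-/- and to 0.22 in Lmx1b-/- against Lmx1b+/-, and the share of calls that were higher from 53.0%, 42.1% and 45.1% to 26.1%, 14.2% and 74.3%. In Lmx1b-/- against Lmx1b+/-, 8 calls became 5 with library size only and with limma at either pseudocount, and 7 to 8 with a library left out. The genes called there went from 5544 to 3663 without the length trend and to between 3500 and 6054 with a library left out.

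In AMPK-/- against WT, 6 calls became 2 with DESeq2, 2 with library size only and 2 without the length trend. They became 0 with limma at either pseudocount and 2 to 7 with a library left out. Without both shallow libraries 0 members were called, while 8 had an unadjusted edgeR p under 0.05, as did 20.2% of tested genes. With the length trend removed as well, 0 were called. Over all genes, 1555 calls became 680 with DESeq2, 825 with 10 counts in every library, 901 without the length trend, 0 with limma at either pseudocount, 6 without both shallow libraries, 4 with both changes, and 548 to 2958 with a library left out. In Lmx1b-/- against WT the 4 called genes became 34 with DESeq2, 19 with library size only, 329 without a filter, 13 with only the genotypes compared and 3 to 11 with a library left out, and Tbca became the 1 member called without a filter (edgeR adjusted p = 0.041). The cause of these shifts was not tested.

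Directions turned only for members near 0 or with 1 count. Pfdn4 in AMPK-/- was -0.033 and -0.15 in limma with pseudocounts 1 and 0.1. Without the length trend Tbcd and Tbce became 0.14 and 0.074 in Lmx1b+/- against WT and -0.14 and -0.083 in Lmx1b-/- against Lmx1b+/-, where Tbce was also -0.0040 with DESeq2 and -0.0042 with RLE scaling. With a library left out, Tbce ran from -0.070 to 0.039 in Lmx1b+/- against WT, from -0.13 to 0.048 in Lmx1b-/- against WT and from -0.11 to 0.067 in Lmx1b-/- against Lmx1b+/-, and Tbcd from -0.065 to 0.0045 and from -0.027 to 0.14 in the last 2.

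Libraries of the same replicate number did not deviate together (correlations -0.12 to 0.048 in AMPK and -0.18 to 0.15 in Lmx1b). The number was therefore not used as a pairing in the main fit. These correlations cannot exclude a shared litter or batch, since such a link need not follow the number. With the replicate block, 4 members were called in AMPK-/-, 8 in Lmx1b+/- against WT, 0 in Lmx1b-/- against WT and 8 in Lmx1b-/- against Lmx1b+/-. The same fits called 1350, 7243, 5 and 4720 genes in all. The 2 shallow libraries limit the AMPK comparison: there a member at 10 CPM gave about 3 counts.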
